A study of Mus musculus with 6 samples.

Results

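Elastic fibre and microfibril genes were examined in infarcted mouse left ventricles after treatment with CCN3 or PBS. The genes were taken by symbol and comprised Eln, Fbn1, Fbn2, Mfap2, Mfap4, Mfap5, Fbln1, Fbln5, Efemp1 and Efemp2. All 10 were measured, among 15909 genes in all. In both groups the left anterior descending coronary artery of adult mice was tied off permanently to cause a myocardial infarction (MI). The treated group then received recombinant human CCN3, a matricellular protein that cells secrete, at 6 µg/kg by intraperitoneal injection, and the control group received PBS. At 4 days post injury (dpi) the left ventricle was taken for RNA sequencing, with 3 CCN3 libraries and 3 PBS libraries. The methods of the study name C57/B6J mice for CCN3 dosing after MI and give no strain for these hearts in particular. Uninjured hearts were not analysed here, so no change caused by the infarct itself was measured.

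Elastic fibres give the heart wall, its valves and its arteries their recoil. Each fibre has a core of cross-linked elastin within a sheath of microfibrils, which are built from fibrillins and carry small Mfap glycoproteins. Fibulins tie tropoelastin, the soluble precursor of elastin, to the microfibrils and to the lysyl oxidases that cross-link it. Fibroblasts and smooth muscle cells are the usual producers, and microfibrils also hold latent TGF-beta in the matrix.

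Values were log2 CPM (read counts scaled to a common library size, on a log2 scale) after 2 factors of unwanted variation had been taken out by the authors. Their read depth is unknown, and counting error is therefore not given. Libraries correlated with each other at between 0.989 and 0.998 across genes, and the CPM of a library summed to between 1001640 and 1012560 in the CCN3 group and between 1007710 and 1031630 in the PBS group. Libraries of a group are called biological replicates, without a statement that each is 1 animal. The p-values therefore cover only the spread left between these libraries after the 2 factors were taken out. Ventricular cardiomyocyte genes were abundant, as Myh6 lay between 13.01 and 13.12 log2 CPM in the CCN3 group and between 13.05 and 13.30 log2 CPM in the PBS group. Since whole ventricle was sequenced, fewer cells of a type and less RNA per cell cannot be told apart.

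Of the 10 genes, Eln and Mfap5 rose with CCN3 at the threshold of the study, an adjusted p under 0.2 (limma, Benjamini-Hochberg over all 15909 genes), and 0 fell. By comparison, 0.515% of all genes were called higher and 1.08% were called lower, 1.6% or 254 genes in total, of which about 50.8 are expected to be false at this threshold. The lowest adjusted p of any gene by limma was 0.110. The log2 fold change was above 0 for 9 of the 10 genes, against 49.4% of all genes, and its median was 0.26 over the 10 genes, against -0.0018 over all genes. With 1 library left out, this median lay between 0.16 (without PBS replicate 3) and 0.42 (without PBS replicate 1). Such fits still adjusted for the 2 removed factors, so their log2 fold changes are not plain differences between means of the remaining libraries. An unadjusted p under 0.05 with a positive log2 fold change was found for 7 of the 10 genes, against 4.05% of all genes. All 3 CCN3 libraries lay above all 3 PBS libraries for 6 of the 10 genes, against 15.1% of all genes, and below them for 0, against 18.2% of all genes. All 10 genes were read in the same libraries, so their number does not count as replication.

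**Figure D1:**
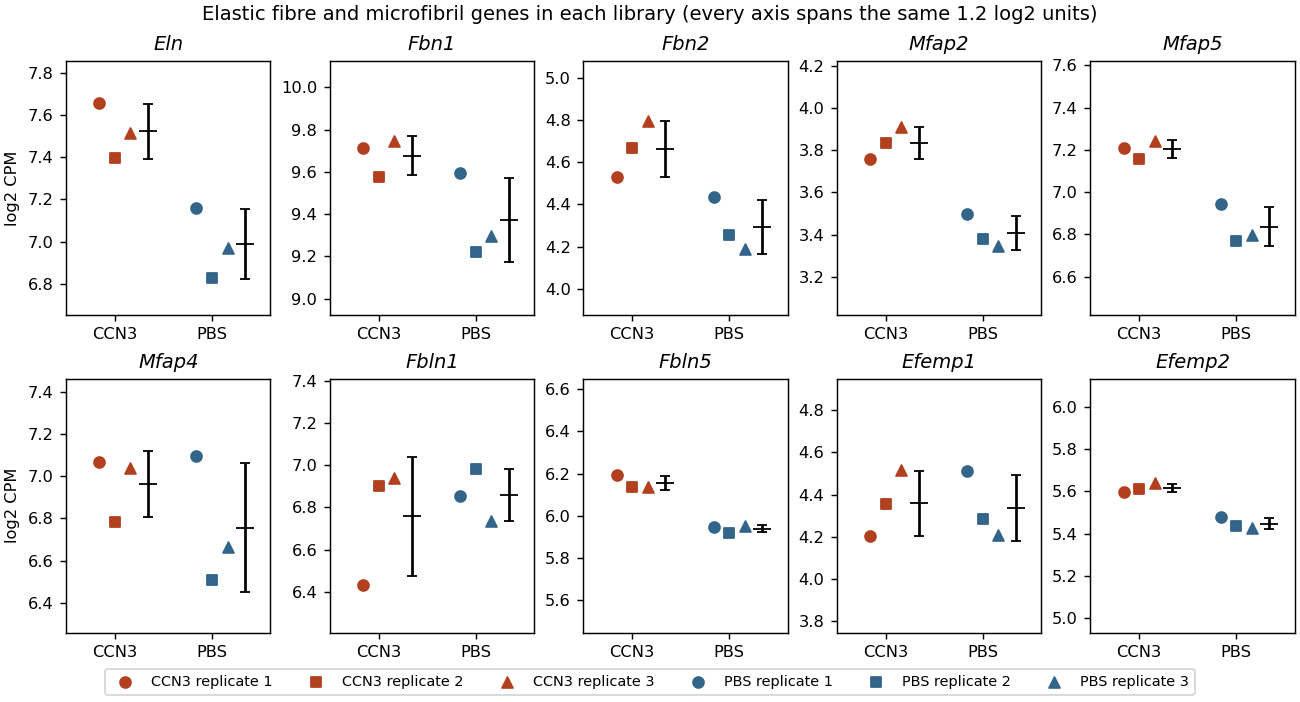
Level of each of the 10 genes in log2 CPM (vertical axis) in the CCN3 and PBS libraries (points, with a symbol for each replicate number) and the mean with SD of each group (bars, n = 3). The groups are fully separated for Eln, Fbn2, Mfap2, Mfap5, Fbln5 and Efemp2 and overlap for Fbn1, Mfap4, Fbln1 and Efemp1.

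Eln encodes tropoelastin, the soluble precursor that is cross-linked into the elastin core. It had 7.66, 7.40 and 7.51 log2 CPM in the CCN3 libraries, against 7.16, 6.83 and 6.97 log2 CPM in the PBS libraries. The lowest CCN3 library thus lay 0.24 log2 units above the highest PBS library. Eln averaged 7.52 ± 0.13 log2 CPM with CCN3 and 6.99 ± 0.17 log2 CPM with PBS (SD, n = 3 each), a log2 fold change of 0.54 ± 0.11 (SE) or 1.45-fold (95% interval 1.21 to 1.74). It was called higher, with an adjusted p of 0.190 by limma, close to the threshold. The call was lost when CCN3 replicate 1 (adjusted p = 0.315, limma), CCN3 replicate 3 (0.604) or PBS replicate 3 (0.831) was left out, or without the mean-variance trend (0.451). With 1 library left out, the log2 fold change of Eln lay between 0.35 and 0.76. Alternatives that changed only the variance model, the gene filter or the covariates could not alter it, so its sign there is no support. Eln lies at chr5:134731445-134776322 on the minus strand of GRCm39, the assembly used by the authors.

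Fibrillins polymerise into the backbone of the microfibril, and in humans mutations of FBN1 cause Marfan syndrome. Fbn1 had 9.71, 9.58 and 9.75 log2 CPM in the CCN3 libraries, against 9.60, 9.22 and 9.30 log2 CPM in the PBS libraries. The groups overlapped because PBS replicate 1 lay above CCN3 replicate 2. The log2 fold change of Fbn1 was 0.31 ± 0.12 (SE), with an adjusted p of 0.435 by limma, and it lay between 0.13 (without PBS replicate 2) and 0.49 (without CCN3 replicate 2) with 1 library left out. Fbn2, the fibrillin known mainly from development, had 4.53, 4.67 and 4.79 log2 CPM in the CCN3 libraries, against 4.43, 4.26 and 4.19 log2 CPM in the PBS libraries. All CCN3 values of Fbn2 were above all PBS values, but by a gap of only 0.09. The log2 fold change of 0.37 ± 0.11 (SE) did not pass the threshold (adjusted p = 0.303, limma) and was 0.16 without PBS replicate 3. Fbn1 lies at chr2:125142514-125349913 and Fbn2 at chr18:58141695-58343645, both on the minus strand of GRCm39.

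Mfap2 and Mfap5 encode MAGP-1 and MAGP-2, small glycoproteins that bind fibrillin along the microfibril. Mfap5 had 7.21, 7.16 and 7.24 log2 CPM in the CCN3 libraries, against 6.95, 6.77 and 6.80 log2 CPM in the PBS libraries. The CCN3 libraries were tightly grouped and all of them lay above the PBS libraries. Mfap5 rose by 0.37 ± 0.07 (SE) on the log2 scale, 1.29-fold (95% interval 1.15 to 1.45), with an adjusted p of 0.177 by limma. As for Eln, the call was lost without CCN3 replicate 1 (adjusted p = 0.317, limma), CCN3 replicate 3 (0.618) or PBS replicate 3 (0.830), or without the mean-variance trend (0.446). Mfap2 had 3.76, 3.83 and 3.91 log2 CPM in the CCN3 libraries, against 3.50, 3.38 and 3.35 log2 CPM in the PBS libraries. These groups were separated by 0.26, the widest gap among the 10 genes. Its log2 fold change of 0.43 ± 0.10 (SE) missed the threshold, with an adjusted p of 0.215 by limma. Mfap5 lies at chr6:122470878-122508875 and Mfap2 at chr4:140737729-140743295, both on the plus strand.

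Mfap4, a fibrinogen-related protein that binds elastin and fibrillin, did not separate the groups. It had 7.07, 6.78 and 7.04 log2 CPM in the CCN3 libraries, against 7.10, 6.51 and 6.67 log2 CPM in the PBS libraries. PBS replicate 1 was the highest of all 6 libraries. The log2 fold change was 0.21 ± 0.16 (SE), with an interval from -0.19 to 0.60 (adjusted p = 0.734, limma). Without PBS replicate 2 it was -0.09 in the fit adjusted for the 2 removed factors. The plain mean of the remaining PBS libraries still lay below the CCN3 mean.

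Fibulin-5 (Fbln5) and fibulin-4 (Efemp2) are both required for elastic fibre assembly in mice, fibulin-5 by bridging elastin to cells and microfibrils and fibulin-4 by bringing lysyl oxidase to tropoelastin. Fbln5 had 6.20, 6.13 and 6.14 log2 CPM in the CCN3 libraries, against 5.95, 5.92 and 5.95 log2 CPM in the PBS libraries. The spread within each group was small beside the 0.18 gap between the groups. The log2 fold change of Fbln5 was 0.22 ± 0.06 (SE), with an adjusted p of 0.264 by limma. Efemp2 had 5.60, 5.61 and 5.64 log2 CPM in the CCN3 libraries, against 5.48, 5.44 and 5.43 log2 CPM in the PBS libraries. Here too the groups were separate, by 0.12, but the log2 fold change of 0.17 ± 0.06 (SE) did not pass (adjusted p = 0.375, limma).

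The other 2 fibulins did not follow this pattern. Fbln1 (fibulin-1), found in the elastin core and in basement membranes, had 6.43, 6.90 and 6.94 log2 CPM in the CCN3 libraries, against 6.85, 6.98 and 6.74 log2 CPM in the PBS libraries. CCN3 replicate 1 was lowest, and the other CCN3 libraries lay within the PBS range. The log2 fold change of Fbln1 was -0.10 ± 0.15 (SE, interval -0.46 to 0.26, adjusted p = 0.868, limma), and it was 0.09 without CCN3 replicate 1. Efemp1 (fibulin-3) had 4.20, 4.36 and 4.51 log2 CPM in the CCN3 libraries, against 4.51, 4.29 and 4.21 log2 CPM in the PBS libraries. The groups covered nearly the same range. Its log2 fold change was 0.02 ± 0.12 (SE, interval -0.27 to 0.32, adjusted p = 0.975, limma).

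Sequence around the transcription start is shown for genes with separated and with overlapping groups. RefSeq promoter windows (GRCm38.p6, 250 bases before to 50 after a start) were read for 6 of the 10 genes. These were Fbn1, Mfap2, Fbln1, Fbln5, Efemp1 and Efemp2. The first window listed is printed for Mfap2 (chr4:141010431-141010730, plus strand) and Fbln5 (chr12:101819070-101819369, minus strand), whose groups were separate, and for Efemp1 (chr11:28852955-28853254, plus strand) and Fbln1 (chr15:85205699-85205998, plus strand), whose groups overlapped. Capitals mark matches, on either strand, to the TEAD motif GGAATG, the SMAD motif CAGAC, the AP-1 motif TGANTCA, the Sp1 motif GGGCGG or the TATA motif TATAAA.
Mfap2: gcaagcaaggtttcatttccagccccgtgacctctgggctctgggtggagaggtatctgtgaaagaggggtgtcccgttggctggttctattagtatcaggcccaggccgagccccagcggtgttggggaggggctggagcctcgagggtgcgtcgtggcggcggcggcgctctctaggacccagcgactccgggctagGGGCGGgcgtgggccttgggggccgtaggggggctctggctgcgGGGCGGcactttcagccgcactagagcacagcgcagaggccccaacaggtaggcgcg
Fbln5: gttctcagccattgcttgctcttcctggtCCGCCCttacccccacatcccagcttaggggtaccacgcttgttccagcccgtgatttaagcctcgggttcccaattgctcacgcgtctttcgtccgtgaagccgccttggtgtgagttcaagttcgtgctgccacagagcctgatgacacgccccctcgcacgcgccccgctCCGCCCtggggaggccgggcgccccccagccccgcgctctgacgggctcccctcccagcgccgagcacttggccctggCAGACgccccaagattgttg
Efemp1: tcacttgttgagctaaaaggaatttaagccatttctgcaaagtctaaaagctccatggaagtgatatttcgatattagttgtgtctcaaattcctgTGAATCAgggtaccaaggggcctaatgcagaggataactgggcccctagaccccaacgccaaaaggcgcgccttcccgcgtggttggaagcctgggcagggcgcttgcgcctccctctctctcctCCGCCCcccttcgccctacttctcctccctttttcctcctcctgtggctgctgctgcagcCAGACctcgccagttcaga
Fbln1: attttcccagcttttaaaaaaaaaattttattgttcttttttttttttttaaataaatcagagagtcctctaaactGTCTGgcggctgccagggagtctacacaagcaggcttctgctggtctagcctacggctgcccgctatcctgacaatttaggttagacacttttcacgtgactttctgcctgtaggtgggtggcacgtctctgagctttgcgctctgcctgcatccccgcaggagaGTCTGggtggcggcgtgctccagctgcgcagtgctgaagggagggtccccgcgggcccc

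Among these 4 windows, Mfap2 held 2 Sp1 matches and Fbln5 held 2 Sp1 matches and 1 SMAD match. Efemp1 held 1 match each to the AP-1, Sp1 and SMAD motifs, and Fbln1 held 2 SMAD matches. No matches overlapped in these 4 windows. Of the other 7 windows of the 6 genes, the second of Mfap2 held 1 TEAD and 1 SMAD match. That was the only TEAD match among the 11 windows read for these 6 genes. The 3 windows of Efemp2, whose groups were separate, held 2, 5 and 7 Sp1 matches, some of them overlapping each other, and the first also held 2 SMAD matches. Fbn1, whose groups overlapped, held 1 Sp1 match. The second window of Fbln5 held 2 SMAD matches and that of Fbln1 held 2 SMAD and 2 Sp1 matches. Of 32851 windows of the same length in the genome, 35.7% held the Sp1 motif, 49.6% the SMAD motif, 7.81% the AP-1 motif, 14.7% the TEAD motif and 13.6% the TATA motif. A match is a description of these letters and not a binding site.

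Levels were compared between genes after division by transcript length, as CPM per kilobase of the canonical transcript. Group levels were taken from the mean log2 CPM of 3 libraries and are therefore geometric means. On this scale Mfap4 and Fbn1 were the most abundant, with Mfap4 at 72.5 CPM per kb with CCN3 and 62.8 CPM per kb with PBS. Fbn1 stood at 68.2 CPM per kb with CCN3 and 55.2 CPM per kb with PBS. Eln had 46.0 CPM per kb with CCN3 and 31.7 CPM per kb with PBS, while Fbln1 had 46.4 and 49.8 CPM per kb in the same groups. Eln and Fbln1 were thus at nearly the same mean level with CCN3 but not with PBS. Single CCN3 libraries differed, at 50.4, 42.1 and 45.8 CPM per kb for Eln and 37.1, 51.3 and 52.7 CPM per kb for Fbln1. Eln lay above Fbln1 only in CCN3 replicate 1, where Fbln1 was low. Fbn2 was the least abundant of the 10 genes, at 2.28 CPM per kb with CCN3 and 1.76 CPM per kb with PBS. The remaining genes ranged from 9.44 (Efemp1) to 33.9 CPM per kb (Mfap5) with CCN3 and from 9.29 (Efemp1) to 26.3 CPM per kb (Mfap5) with PBS.

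The balance between pairs of genes within each library was compared for 6 pairs. The log2 ratio of Eln to Fbn1 was -2.06, -2.18 and -2.23 in the CCN3 libraries, against -2.44, -2.39 and -2.33 in the PBS libraries. This was the only pair of the 6 whose groups did not overlap. The difference was 0.23 (exact permutation test, two-sided, p = 0.1, adjusted p = 0.36), and 0.1 is the smallest p that 3 libraries against 3 allow. The differences for the other pairs were 0.06 for Fbn2 to Fbn1, -0.06 for Mfap5 to Mfap2, -0.22 for Mfap4 to Mfap2, -0.32 for Fbln1 to Fbln5 and -0.15 for Efemp1 to Efemp2. Their exact permutation p-values lay between 0.2 and 0.7 and the adjusted values between 0.36 and 0.7. Because 2 factors had been taken out of these values beforehand, the libraries are not freely exchangeable and the permutation p-values may be too small.

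Among other genes of the elastic fibre pathway, 4 of 47 measured (50 listed in 6 lists) were called higher, against 0.515% of all genes. Of the same 47, 0 were called lower, against 1.08% of all genes. The median log2 fold change of the 47 was 0.06, against -0.0018 over all genes, and 31 of 47 were above 0, against 49.4% of all genes. Of the lysyl oxidases, the enzymes that cross-link elastin and collagen, 2 of 5 rose. Lox had 8.97, 8.99 and 8.99 log2 CPM in the CCN3 libraries, against 8.57, 8.57 and 8.56 log2 CPM in the PBS libraries. Both groups were almost without spread, and Lox rose by 0.42 ± 0.06 (SE) on the log2 scale, 1.34-fold (adjusted p = 0.123, limma). Loxl3 had 6.12, 6.06 and 6.04 log2 CPM in the CCN3 libraries, against 5.69, 5.69 and 5.72 log2 CPM in the PBS libraries. It rose by 0.37 ± 0.06 (SE) on the log2 scale, with an adjusted p of 0.145 by limma and fully separated groups. The median over the 5 lysyl oxidases was 0.23, and Loxl1, Loxl2 and Loxl4 did not pass.

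Latent TGF-beta binding proteins resemble fibrillins, and several of them attach to microfibrils. Of the 4 measured, Ltbp2 rose, with 7.09, 6.85 and 6.98 log2 CPM in the CCN3 libraries, against 6.65, 6.32 and 6.45 log2 CPM in the PBS libraries. The groups were separate, and the log2 fold change was 0.50 ± 0.11 (SE, 1.41-fold, adjusted p = 0.197, limma). This call was lost with each library centred on its median (adjusted p = 0.201, limma). The list went both ways, with 3 of 4 above 0 and a median log2 fold change of 0.13. Ltbp1 was at -0.26 (adjusted p = 0.265, limma), and all its CCN3 libraries lay below all PBS libraries. Ltbp3 was at 0.25 (0.265) and Ltbp4 at 0.01, and neither was called. Among 9 Adamts and Adamtsl genes that bind microfibrils, 6 were above 0 with a median of 0.05, and only Adamtsl2 was called, as higher. This glycoprotein binds fibrillin-1 and latent TGF-beta binding proteins, and in humans its mutation causes geleophysic dysplasia. Adamtsl2 had 5.64, 5.47 and 5.47 log2 CPM in the CCN3 libraries, against 4.97, 4.90 and 4.99 log2 CPM in the PBS libraries. Every CCN3 library was well above every PBS library, a log2 fold change of 0.57 ± 0.08 (SE, 1.48-fold, adjusted p = 0.123, limma). All 4 of these calls were lost without CCN3 replicate 3 (adjusted p of 0.5 for Adamtsl2 and 0.522 to 0.628 for the others, limma), without PBS replicate 3 (0.827 to 0.831) and without the mean-variance trend, and those of Lox, Loxl3 and Ltbp2 also without CCN3 replicate 1 (0.256 to 0.334).

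No gene of the other 3 lists was called. For other fibulins, emilins and Mfap genes, 4 of 12 were above 0 and the median was -0.09. In this list the smallest p-values belonged to Fbln2 (0.23, adjusted p = 0.247, limma), Mfap1b (-0.20, 0.348) and Mmrn2 (-0.20, 0.349), given as log2 fold change with adjusted p. Mfap1b encodes a splicing factor and not a matrix protein, and it shares near-identical sequence with Mfap1a, so reads may be split between them. Elastases, which degrade elastin, had a median of 0.08 with 5 of 7 above 0, and the 3 smallest p-values were those of Mmp14 (0.22, adjusted p = 0.347, limma), Ctsk (0.15, 0.531) and Ctsl (0.14, 0.577). Receptors for elastin and microfibrils had a median of 0.09 with 8 of 10 above 0. Here Itga5 (0.21, adjusted p = 0.258, limma) and Itgb5 (0.16, 0.385), integrin subunits that bind matrix proteins, had the smallest p-values, and Itgb6 (-0.35 ± 0.23 SE, 0.657) was the gene furthest below 0.

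**Figure D2:**
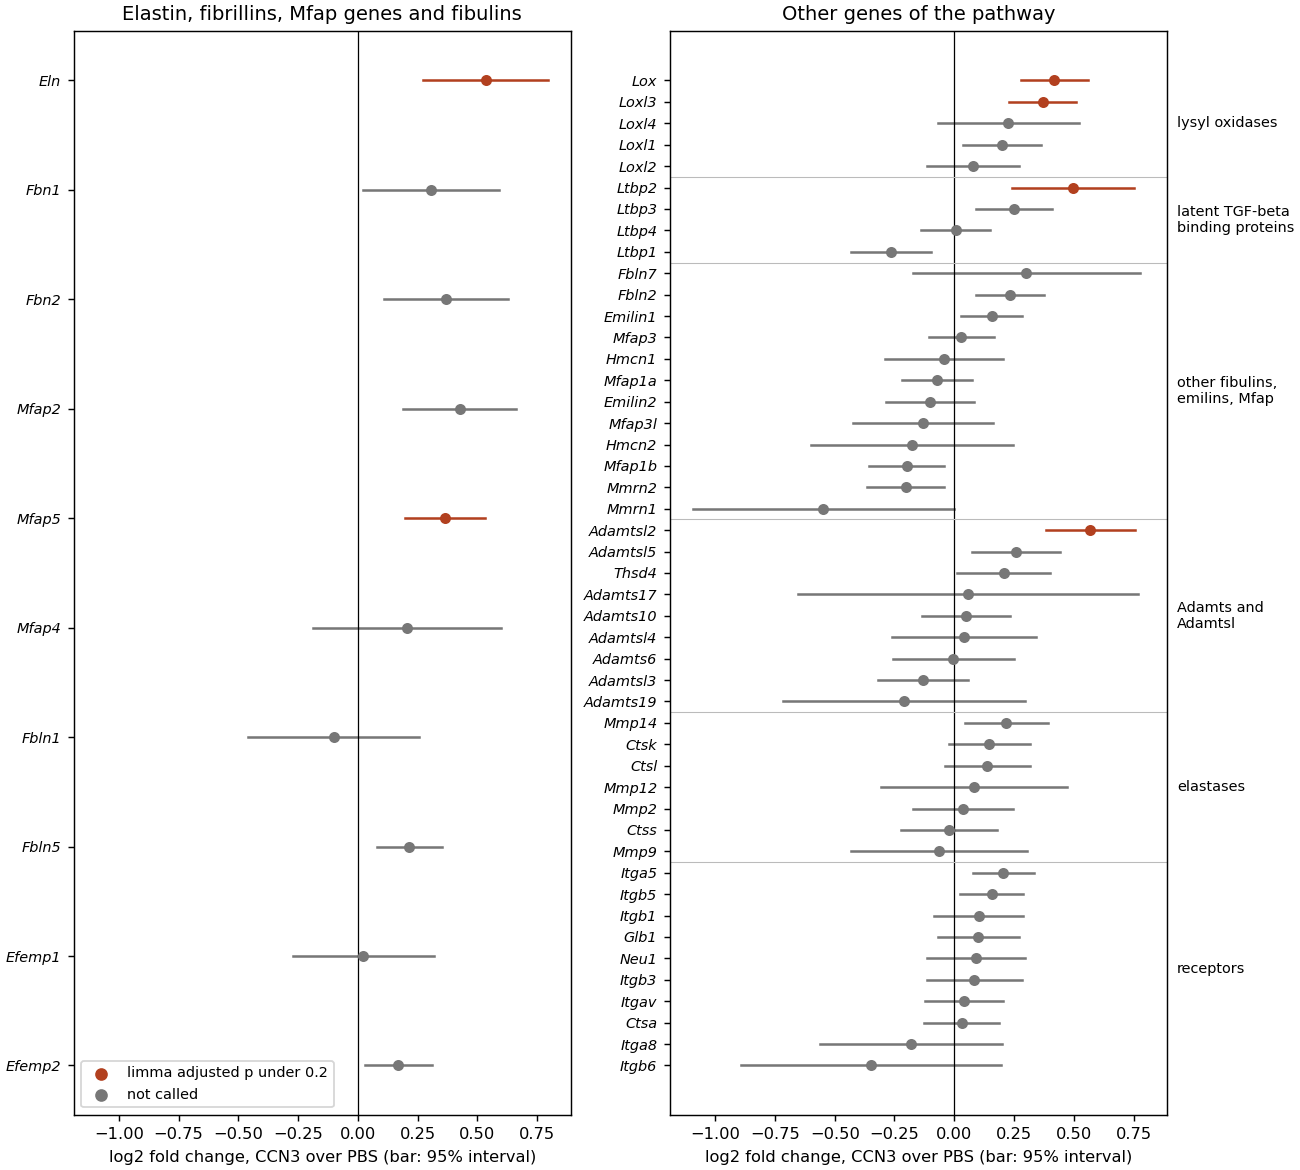
Log2 fold change of CCN3 over PBS (horizontal axis) with its 95% interval (bars) for the 10 genes (left) and the 47 other genes of the pathway by list (right), from limma. The red points are the genes called at an adjusted p under 0.2, which are Eln, Mfap5, Lox, Loxl3, Ltbp2 and Adamtsl2, and all 6 lie right of 0.

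Likeness to Eln was measured as the root mean square distance between gene-centred log2 CPM over the 6 libraries, among 13405 other genes with a mean of at least 1 log2 CPM. Ltbp2 was the closest, at a distance of 0.02 log2 units. It was followed by Rcan1, a regulator of calcineurin that was itself called higher (log2 fold change 0.50, adjusted p = 0.178, limma), and by Gpr135, Mid1 and Gng8, which were not called. All 5 were within 0.05 log2 units of Eln. The distance includes the difference between groups, so log2 fold changes near that of Eln follow from how these genes were picked. Among the 10 genes the nearest to Eln were Mfap5 (0.12), Fbn1 (0.13) and Mfap2 (0.14), and the furthest were Efemp1 (0.30) and Fbln1 (0.42). After removal of the 2 factors, values within groups varied along only 2 directions, and the distances are given as a description.

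**Figure D3:**
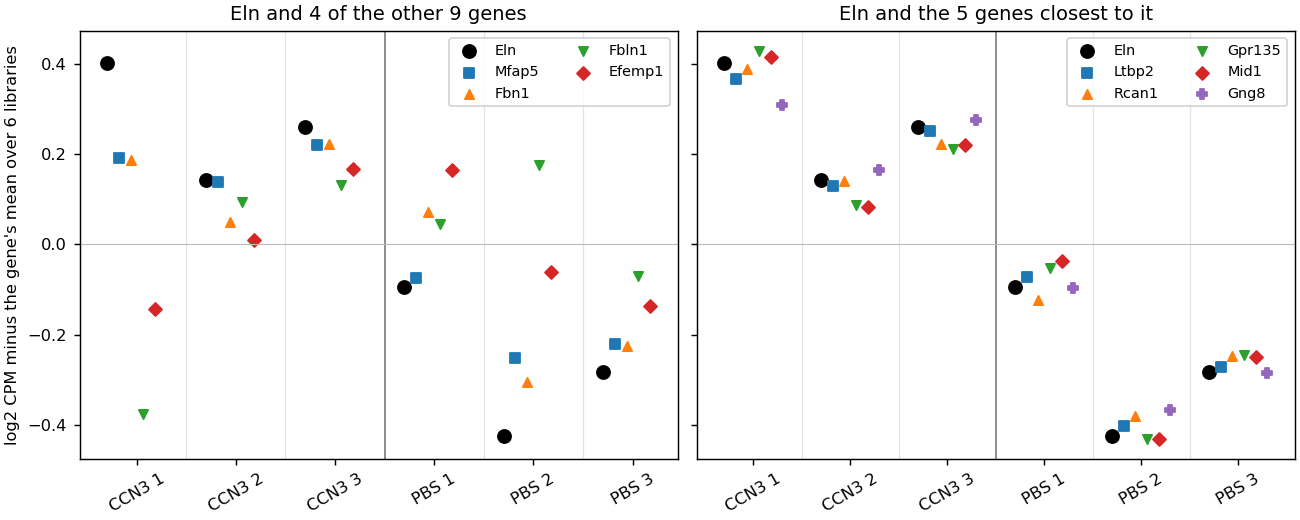
Log2 CPM minus the mean of the gene over 6 libraries (vertical axis) in each CCN3 and PBS library (horizontal axis) for Eln with Mfap5, Fbn1, Fbln1 and Efemp1 (left) and for Eln with the 5 closest genes (right). The 5 closest genes lie within about 0.1 of Eln in every library, while Fbln1 departs from Eln most in CCN3 replicate 1.

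Within the groups, single libraries stood out in the same way for many of these genes. PBS replicate 1 was the highest PBS library for 8 of the 10 genes, against 46.7% of all genes, and CCN3 replicate 3 was the highest CCN3 library for 7 of the 10, against 33.0% of all genes. Without PBS replicate 1, 6 of the 10 genes were called higher by limma, adding Fbn1 (adjusted p = 0.086), Fbn2 (0.173), Mfap2 (0.172) and Mfap4 (0.132) to Eln and Mfap5, and 1.42% of all genes were called higher in that fit. Without CCN3 replicate 2, 4 were called, with Fbn1 (adjusted p = 0.161, limma) and Mfap4 (0.153) added, against 1.82% of all genes called higher. None were called by limma without CCN3 replicate 1, CCN3 replicate 3 or PBS replicate 3, although 5, 4 and 3 of the 10 genes had an unadjusted p under 0.05 in those fits, against 8.3%, 7.17% and 5.91% of all genes.

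**Figure D4:**
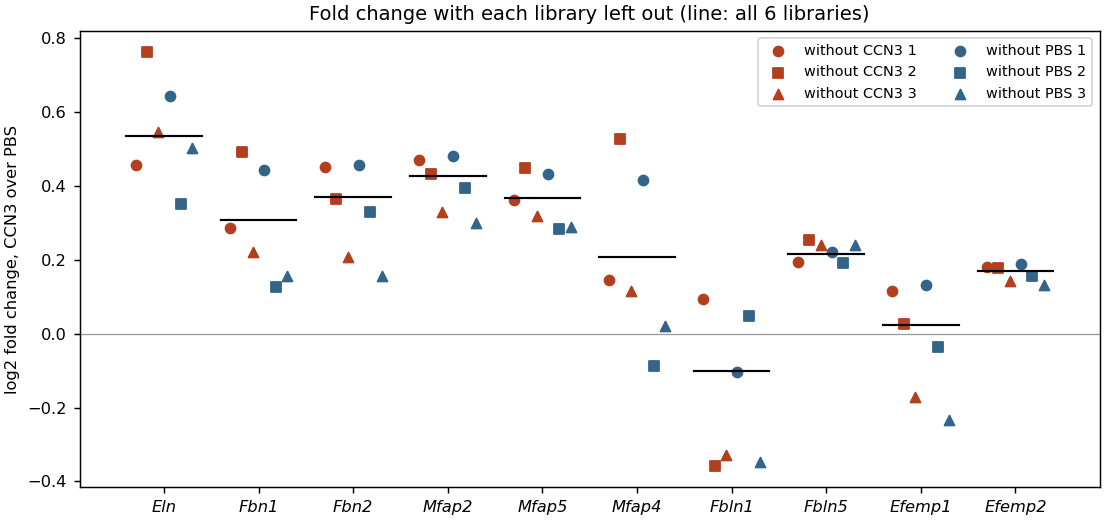
Log2 fold change of CCN3 over PBS (vertical axis) for each of the 10 genes with 1 library left out in turn (points) and with all 6 libraries (lines). Eln stays between 0.35 and 0.76 and Mfap5 between 0.28 and 0.45, while Mfap4, Fbln1 and Efemp1 have points on both sides of 0.

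Cell type markers were read beside these genes as lists of known markers. Of the 10 fibroblast markers 0 were called by limma, 6 were above 0 and the median log2 fold change was 0.14. An unadjusted p under 0.05 in either direction was found for 3 of the 10 (limma), against 10.6% of all genes. Their summed level lay between 9790 and 10767 CPM in the CCN3 libraries and between 9252 and 10325 CPM in the PBS libraries. The list went both ways. Pdgfra and Tcf21, which define cardiac fibroblasts, each had a log2 fold change of 0.18 (adjusted p = 0.412 and 0.479, limma), and their groups were separate. Gsn, which encodes gelsolin, had the value furthest from 0, -0.59 (adjusted p = 0.258, limma), with all CCN3 libraries below all PBS libraries, and Dpt, Dcn and Lum had values of -0.10, -0.10 and -0.17. Relative to the mean of the 10 fibroblast markers in the same library, a scaling chosen after seeing the data, Eln was higher by 0.52 on the log2 scale (adjusted p = 0.085, limma) and Mfap5 by 0.35 (0.130). The mean of these markers differed by only 0.01 on the log2 scale between the groups, because members above and below 0 cancelled, so this scaling lowered every log2 fold change by that amount and does not test a difference in fibroblast content.

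Of the 6 myofibroblast markers 0 were called, and 1 had an unadjusted p under 0.05 (limma), against 10.6% of all genes. Their summed level lay between 3129 and 3794 CPM in the CCN3 libraries and between 2949 and 4470 CPM in the PBS libraries. Postn, the periostin gene of activated fibroblasts, had a log2 fold change of -0.01 ± 0.20 (SE, adjusted p = 0.991, limma). Cilp, a matrix gene of activated fibroblasts, had 6.84, 6.69 and 6.95 log2 CPM in the CCN3 libraries, against 6.46, 5.91 and 6.00 log2 CPM in the PBS libraries. Its groups were separate, and its log2 fold change of 0.71 ± 0.16 (SE, 1.63-fold) was larger than that of Eln and just missed the threshold (adjusted p = 0.202, limma). Smooth muscle markers summed to between 316 and 328 CPM with CCN3 and between 304 and 326 CPM with PBS. Here 0 of 6 were called and 1 had an unadjusted p under 0.05 (limma), against the same 10.6% of all genes. Of the 6 pericyte markers 2 fell, against 1.08% of all genes called lower (Kcnj8 by 0.54 and Abcc9 by 0.51 on the log2 scale, adjusted p = 0.119 for both, limma). Their summed level was 1224 to 1336 CPM with CCN3 and 1549 to 1844 CPM with PBS, without overlap, and came mostly from Rgs5 (-0.44, adjusted p = 0.257, limma) and Abcc9. The other members were near or above 0, with Notch3 at -0.01, Pdgfrb at 0.13 and Cspg4 at 0.21, and all CCN3 values of Pdgfrb lay above all PBS values. The 6 ventricular cardiomyocyte markers summed to 22310 to 24010 CPM with CCN3 and 24579 to 28101 CPM with PBS, also without overlap. Here 0 of 6 were called and 3 had an unadjusted p under 0.05 (limma), against 10.6% of all genes. This list also went both ways, with a median of -0.03 and 3 of 6 above 0. Myl2 (-0.41) and Pln (-0.45) had all CCN3 libraries below all PBS libraries, while Ryr2 (0.25) and Actn2 (0.14) had all CCN3 libraries above them.

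Other tissue carried with the ventricle was looked for in the same way. Valve markers, from a tissue rich in elastin, summed to 107 to 111 CPM with CCN3 and 96.9 to 107 CPM with PBS, and atrial markers summed to 22.7 to 33.5 CPM with CCN3 and 15.9 to 33.0 CPM with PBS. Adipocyte markers were highest in PBS replicate 1, at 46.7 CPM, against 18.3 to 38.3 CPM with CCN3 and 12.4 to 18.7 CPM in the other PBS libraries. Skeletal muscle markers, of which 2 of 6 were measured, stood at 8.69 to 18.2 CPM with CCN3 and 3.60 to 5.25 CPM with PBS. Epicardial, endothelial, macrophage and neutrophil sums overlapped between the groups. The part of these other cell types in the levels of Eln, Mfap5 and the other genes was not tested.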

How the data were processed

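Left ventricles were taken 4 days after MI from CCN3 and PBS treated mice, and stranded mRNA libraries were made from total RNA (n = 3 per group). Injections were daily for 4 days by the labels, whereas the methods of the study start them 1 day after MI and its results describe a shorter run. The labels gave the groups and the replicate numbers. According to the submitters' processing notes, the authors quantified reads on GRCm39 with Salmon 1.4.0 and used edgeR. After taking out 2 unwanted factors (RUV), the authors deposited log2 CPM values for 15909 genes. The low-count filter and the prior count are not given in the sources used here, and read depth is unknown. The authors also deposited their own fold changes, p-values and false discovery rates, which were not used.

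Because the deposited values are on a log2 scale and not counts, the fit of treatment with 2 factors was carried out in limma 3.58.1 (R 4.3.3). After group means were subtracted, the values varied along 2 of 4 dimensions. The 2 empty directions (singular value below 1e-06 of the largest) were entered beside treatment, which left 2 residual degrees of freedom and 4.47 from the prior. The part of the removed factors shared with treatment cannot be recovered, so SEs may be too small. SDs describe the spread left after removal. Tests were two-sided, with a mean-variance trend and Benjamini-Hochberg adjustment over all genes, and genes were called at an adjusted p under 0.2.

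The genes and lists were chosen with earlier results of these data known, and the results give no independent support to patterns already seen. Named genes were the 10 genes, every called gene of each pathway list or otherwise up to 3 with the smallest p, the 5 genes closest to Eln, and up to 3 markers of a list. Markers outside the first 3 of a list (Gsn, Dcn, Lum, Cilp, Abcc9, Cspg4, Notch3, Pdgfrb, Actn2, Ryr2 and Pln) were named after their values were seen. Ltbp1, Ltbp3 and Ltbp4 were also named after their values were seen. Pairs of genes were compared with exact permutation tests. Alternatives covered the trend, the removed directions, centring, a pseudocount of 1 CPM, a minimum mean of 1 log2 CPM, robust empirical Bayes, a replicate block, each library left out, and scaling to fibroblast markers. Leave-one-out fits kept the 2 directions and had 1 residual degree of freedom. Their log2 fold changes are therefore adjusted for these directions and can differ from the difference between group means. Gene positions and canonical transcript lengths came from GENCODE on GRCm39, and promoter windows from RefSeq on GRCm38.p6. No promoter window was found for Eln, Mfap4 and Mfap5, and Fbn2 was left out of the promoter search.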

Additional observations from a re-analysis of the deposited data

How the results depend on the processing

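All genes were called higher in 82 and lower in 172 cases, against 0 and 1 without the mean-variance trend (1509 genes had an unadjusted p under 0.05), 2138 and 2633 with treatment only, and 104 lower with each library centred on its median. With treatment only, the removed directions are ignored. With 1 library left out, between 0 and 289 genes were called higher and between 0 and 493 lower. The lowest counts were 0 in total without CCN3 replicate 3 (1141 genes with an unadjusted p under 0.05) and without PBS replicate 3 (941 genes). Of the 10 genes, 2 were called higher, against 0 without the trend (5 had an unadjusted p under 0.05), 7 with treatment only and 0 to 6 with 1 library left out. Of the other pathway genes, 4 were called higher, against 0 without the trend (10 had an unadjusted p under 0.05), 17 with treatment only and 0 to 6 with 1 library left out, and 0 were called lower, against 5 with treatment only and 0 to 3 with 1 library left out.

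The labels gave replicate numbers but no pairing, so the numbers were not taken as pairs. Same-numbered libraries deviated from their group means with correlations of 0.13, 0.97 and -0.98 for replicates 1, 2 and 3. These correlations cannot show whether libraries were paired, because values within groups varied along only 2 directions after removal. CCN3 replicate 2 alone correlated best with its own number. With the replicate block in place of the 2 directions, 2686 genes were called higher and 3246 lower, with 7 of the 10 genes and 17 of the other pathway genes higher and 10 of those pathway genes lower. Eln and Mfap5 were called in 10 of 14 alternatives each, with adjusted p-values from limma between 0.018 and 0.831 for Eln and between 0.016 and 0.830 for Mfap5. These 10 include treatment only, the replicate block and the fibroblast scaling chosen after seeing the data. Treatment only and the replicate block ignore directions whose variance had already been taken out. Their many calls therefore add no support, and the 10 of 14 is not a measure of robustness. The cause of the shifts in the other alternatives was not tested. Differences between pairs of genes kept their direction with a pseudocount of 1 CPM and with each library left out, the only alternatives run on them. That of Fbn2 to Fbn1 was only 0.01 without CCN3 replicate 2. These alternatives reuse the same libraries, so the kept direction is no independent support. Unknown read depth and 3 libraries per group limit what low genes such as Mfap2 and Fbn2 can show.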
